A study of Sus scrofa with 10 samples.

Results

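The 9 genes described here encode transcription factors that set and keep hepatocyte identity, HNF4A, FOXA1, FOXA2, FOXA3, ONECUT1, PROX1, CEBPA, CEBPB and ATF5. They were taken by gene symbol from a table of 31905 genes measured by RNA sequencing in 10 libraries of pig liver (Sus scrofa), and each symbol had 1 row. The study concerns liver failure after hepatectomy and its treatment with a bioartificial liver, through which blood is led past liver cells outside the body. hiHepD8 (2 libraries, day 8) and hiHepD4 (1 library, day 4) are livers treated with a device that held human induced hepatocytes, hepatocyte-like cells converted from another human cell type. EmptyBAL (2 libraries, day 3) is failing liver treated with the device without its cells, NoBAL (2 libraries, day 2) is failing liver left without a device, and Control (3 libraries, day 0) is normal liver. All groups are labelled WT. The sources used here give neither age nor breed, nor whether libraries of a group came from separate animals, and the tests can therefore speak only of differences among libraries, which may be technical. Every comparison also sets a day against another day, so treatment and time cannot be told apart.

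Hepatocyte genes are switched on by a network of factors that bind each other's promoters and enhancers. HNF4A is a nuclear receptor at its centre, the FOXA factors open closed chromatin at liver enhancers, ONECUT1 (also called HNF6) and PROX1 are homeodomain proteins of the embryonic and adult liver, and the C/EBP and ATF5 proteins are leucine zipper factors. In rodents C/EBPα holds hepatocytes in a resting, metabolic state, and C/EBPβ is active in the acute phase response and in regeneration after hepatectomy.

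In pig assembly Sscrofa11.1, HNF4A (ENSSSCG00000007371) lies on chromosome 17 at 46783772 to 46847505, FOXA2 (ENSSSCG00000007114) at 29997397 to 30001704 and CEBPB (ENSSSCG00000034207) at 51722633 to 51723673 on the same chromosome. CEBPA (ENSSSCG00000002866) lies on chromosome 6 at 43083200 to 43085884, FOXA3 (ENSSSCG00000003092) at 52181095 to 52188777 and ATF5 (ENSSSCG00000003201) at 54945067 to 54950142, also on chromosome 6. FOXA1 (ENSSSCG00000037634) lies on chromosome 7 at 62471233 to 62479638, ONECUT1 (ENSSSCG00000004616) on chromosome 1 at 118913400 to 118958140 and PROX1 (ENSSSCG00000015584) on chromosome 9 at 129527704 to 129583693. All are annotated as protein-coding genes.

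Values are FPKM, a level corrected for gene length and for the amount of sequence in a library. FPKM summed to 564816 and 547312 in hiHepD8, 813633 in hiHepD4, 496390 and 439925 in EmptyBAL, 791281 and 526565 in NoBAL, and 823762 to 829970 in Control, and 10366 to 10862 genes reached 1 FPKM in each library. The table gives no read counts, so the depth is unknown. The labels name hepatocytes, but the 10 libraries also held markers of endothelial, stellate and myeloid cells, and the values are treated as those of liver tissue. The summed FPKM of 13 hepatocyte markers was 29704 and 29539 in hiHepD8, 47478 in hiHepD4, 4605 and 9092 in EmptyBAL, 27785 and 18801 in NoBAL, and 99212 to 102397 in Control. In such tissue, fewer hepatocytes and less RNA per hepatocyte cannot be told apart. The EmptyBAL libraries stood apart from each other (Pearson correlation of log2(FPKM + 1) 0.893, against 0.992 in hiHepD8, 0.956 in NoBAL and 0.992 to 0.994 in Control), so the differences that rest on them are also given against each EmptyBAL library further on.

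HNF4A was low with the empty device, and was within 1 log2 unit of normal liver in the other groups. It was at 118 and 119 FPKM in the hiHepD8 libraries, 121 in hiHepD4, 3.15 and 46.5 in EmptyBAL, 84.6 and 90.3 in NoBAL, and 109, 112 and 105 in Control. The EmptyBAL libraries lay below all others and were 14.8-fold apart, while hiHepD8 lay just above Control and NoBAL just below it, with no overlap. HNF4A fell in EmptyBAL against Control (log2 change -2.96 ± 0.83 SE, adjusted p = 0.0182) and was higher in hiHepD8 than in EmptyBAL (3.09 ± 0.91, adjusted p = 0.0295); all log2 changes are of FPKM + 1 and come from a limma model over all libraries, with p adjusted over all 12180 genes tested. No call was made for hiHepD8 against Control (0.12 ± 0.83, adjusted p = 0.927), NoBAL against Control (-0.31 ± 0.83, adjusted p = 0.774), hiHepD8 against NoBAL (0.43 ± 0.91, adjusted p = 0.723) or EmptyBAL against NoBAL (-2.65 ± 0.91, adjusted p = 0.056).

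The spread of HNF4A that limma shares over the groups is mostly that of the EmptyBAL pair. Without EmptyBAL replicate 1 the NoBAL value of -0.31 against Control had adjusted p = 0.0279 and the hiHepD8 value of 0.43 against NoBAL had 0.0113, and without EmptyBAL replicate 2 these were 0.0258 and 0.0104. The fall in EmptyBAL against Control was -1.20 without replicate 1 and -4.72 without replicate 2. With FPKM scaled to equal sums it was -2.24 and was not called (limma adjusted p = 0.0581). With only the 2 groups in the limma fit, its call ended as well (adjusted p = 0.061). EmptyBAL against NoBAL was -0.89 without replicate 1 and -4.41 without replicate 2. A group left with 1 library adds no spread of its own. The limma p-values of such fits, here and below, therefore rest on the spread of the other groups. The difference of hiHepD8 from EmptyBAL was no longer called without hiHepD8 replicate 1 or 2 (adjusted p = 0.114 and 0.115) or without any single Control library (adjusted p = 0.0505 to 0.0511).

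**Figure D1:**
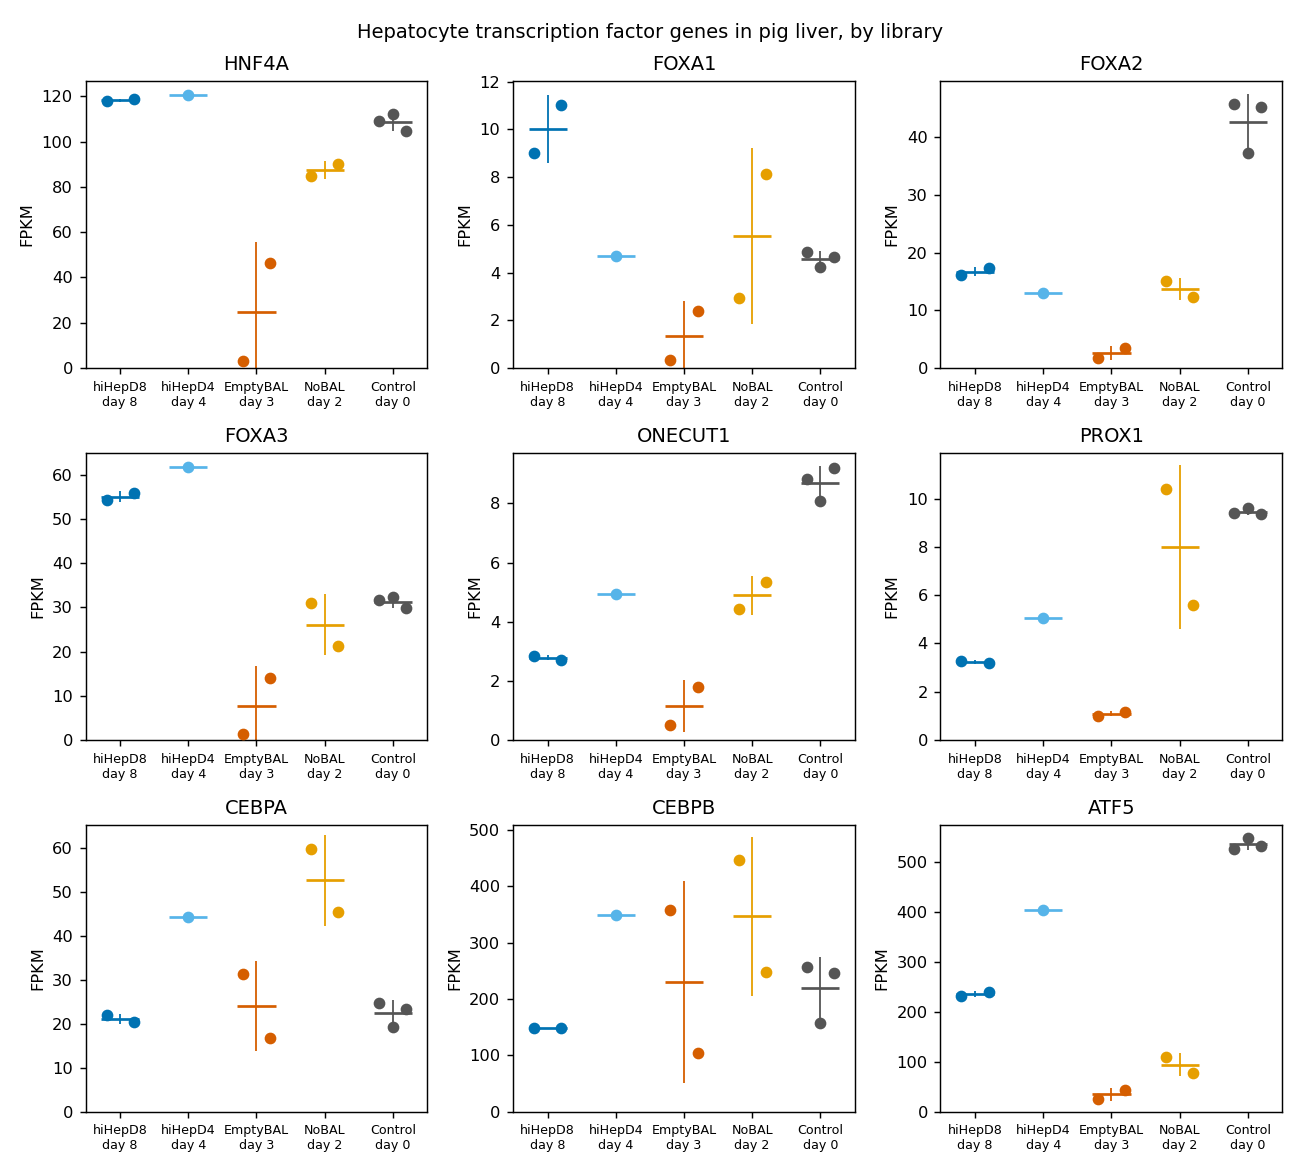
FPKM of the 9 transcription factor genes (vertical axis, starting at 0) in each library, by group and day; points are libraries, horizontal lines are group means and vertical lines are 1 SD where a group has more than 1 library. HNF4A and FOXA3 are lowest in the 2 EmptyBAL libraries, FOXA2, ONECUT1 and ATF5 are highest in Control, and CEBPA is highest in NoBAL.

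The FOXA genes, forkhead factors with similar DNA-binding domains, followed different patterns. FOXA2 was lower in every diseased or treated library than in Control, while FOXA1 and FOXA3 were lowest in EmptyBAL, and lay above Control in both hiHepD8 libraries without being called. FOXA2 was at 16.1 and 17.3 FPKM in hiHepD8, 12.9 in hiHepD4, 1.76 and 3.54 in EmptyBAL, 15.0 and 12.3 in NoBAL, and 45.7, 37.2 and 45.1 in Control. The highest of the libraries outside Control was therefore below the lowest of Control. Against Control, FOXA2 fell in hiHepD8 (-1.30 ± 0.23, adjusted p = 0.00453), in EmptyBAL (-3.62 ± 0.23, adjusted p = 2.45e-05) and in NoBAL (-1.58 ± 0.23, adjusted p = 0.00108). It was also lower in EmptyBAL than in NoBAL (-2.04 ± 0.25, adjusted p = 0.0027) and higher in hiHepD8 than in EmptyBAL (2.32 ± 0.25, adjusted p = 0.000502). hiHepD8 and NoBAL differed by 0.28 ± 0.25 (adjusted p = 0.396), so the day 8 level was not distinguished from that of untreated failure. The call of hiHepD8 against Control ended without hiHepD8 replicate 1 (-1.25, adjusted p = 0.0517).

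FOXA3 was at 54.2 and 55.9 FPKM in hiHepD8, 61.9 in hiHepD4, 1.39 and 14.0 in EmptyBAL, 31.0 and 21.1 in NoBAL, and 31.6, 32.4 and 29.8 in Control. All libraries of the cell-filled device lay above all others, and the EmptyBAL pair, 10.1-fold apart, lay below all others. FOXA3 fell in EmptyBAL against Control (-2.43 ± 0.64, adjusted p = 0.0143) and against NoBAL (-2.15 ± 0.70, adjusted p = 0.0485), and was higher in hiHepD8 than in EmptyBAL (3.23 ± 0.70, adjusted p = 0.00908). The values of hiHepD8 against Control (0.80 ± 0.64, adjusted p = 0.384) and against NoBAL (1.07 ± 0.70, adjusted p = 0.242) were not called. Here too the spread is mostly that of the EmptyBAL pair, and without replicate 1 of it the 2 values had adjusted p = 0.00685 and 0.00206, and without replicate 2 they had 0.00685 and 0.00207. The call against NoBAL ended without any single library of Control, NoBAL or hiHepD8 (adjusted p = 0.0778 to 0.162), and that of hiHepD8 against EmptyBAL without hiHepD8 replicate 1 or 2 (adjusted p = 0.0519 and 0.0537).

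FOXA1 had the lowest FPKM of the FOXA genes in all 10 libraries. It was at 9.02 and 11.0 FPKM in hiHepD8, 4.70 in hiHepD4, 0.342 and 2.38 in EmptyBAL, 2.92 and 8.15 in NoBAL, and 4.86, 4.22 and 4.67 in Control. The hiHepD8 libraries were above all others, the EmptyBAL libraries were below all others, and the NoBAL libraries lay on either side of Control. FOXA1 was higher in hiHepD8 than in EmptyBAL (2.37 ± 0.48, adjusted p = 0.00695) and lower in EmptyBAL than in Control (-1.39 ± 0.44, adjusted p = 0.0301) and NoBAL (-1.49 ± 0.48, adjusted p = 0.0474). The value of hiHepD8 against Control, 0.98 ± 0.44, was not called (adjusted p = 0.131), and had adjusted p = 0.0466 and 0.0469 without EmptyBAL replicate 1 and 2. Without EmptyBAL replicate 1 the values of EmptyBAL were -0.72 against Control (adjusted p = 0.189) and -0.83 against NoBAL (adjusted p = 0.202), and without any single Control library both calls ended (adjusted p = 0.0637 to 0.0782). The call against NoBAL also ended without NoBAL replicate 2 (-0.88, adjusted p = 0.224) and without hiHepD8 replicate 1 or 2 (adjusted p = 0.0752 and 0.0751), and that of hiHepD8 against EmptyBAL without hiHepD8 replicate 2 (2.23, adjusted p = 0.0507).

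As a share of the summed FPKM of the FOXA genes, FOXA3 made up 68.3% and 66.4% in hiHepD8, 77.8% in hiHepD4, 39.7% and 70.3% in EmptyBAL, 63.3% and 50.9% in NoBAL, and 38.5%, 43.9% and 37.4% in Control. FOXA2 made up 20.3% and 20.5% in hiHepD8, 16.3% in hiHepD4, 50.5% and 17.8% in EmptyBAL, 30.7% and 29.6% in NoBAL, and 55.6%, 50.4% and 56.7% in Control. FOXA2 thus led in Control, and FOXA3 led in hiHepD8, hiHepD4 and NoBAL. EmptyBAL replicate 1 kept the Control order at a summed level of 3.49 FPKM, while replicate 2 had 19.9 FPKM. The summed level was 79.3 and 84.2 FPKM in hiHepD8, 79.5 in hiHepD4, 48.9 and 41.6 in NoBAL, and 73.9 to 82.1 in Control, so hiHepD8 and Control overlapped in the total and did not overlap in the shares of FOXA2 and FOXA3.

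**Figure D2:**
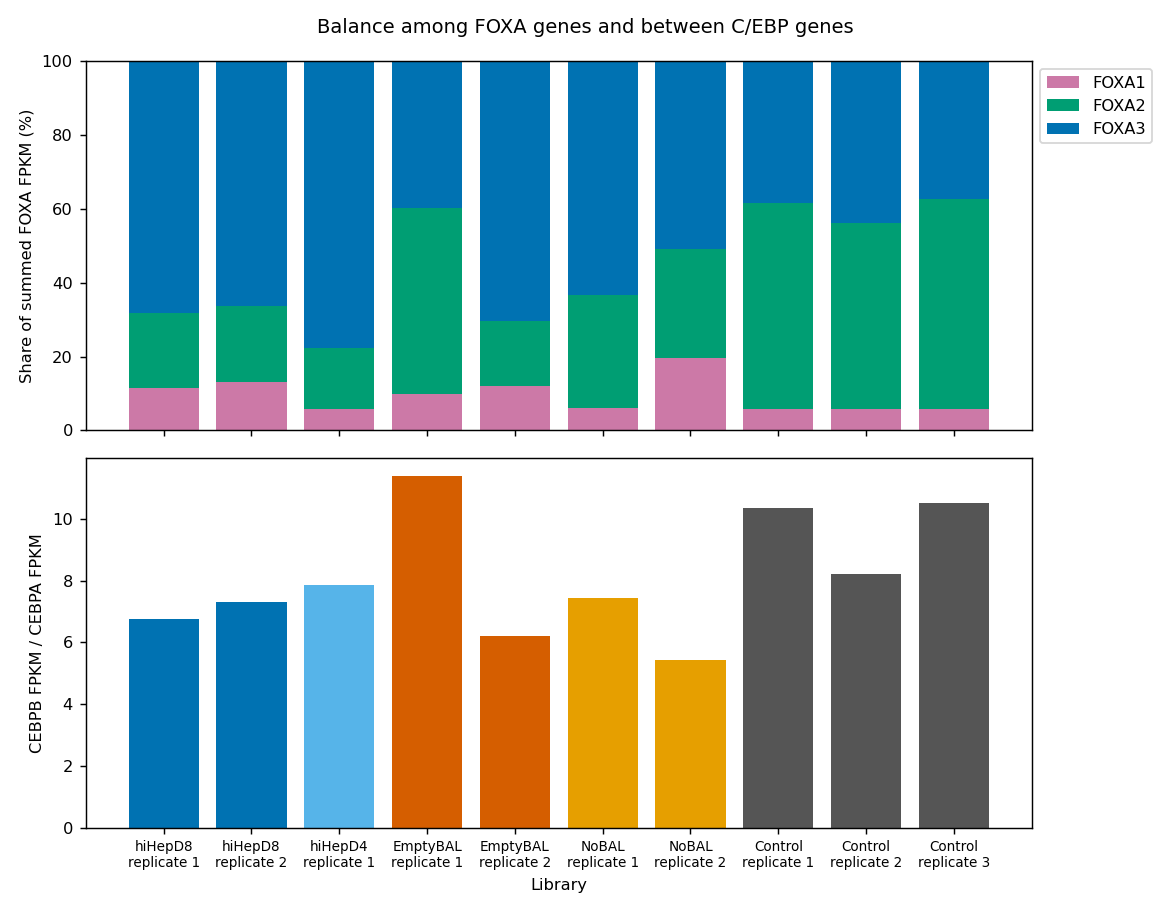
Upper panel, share (%) of FOXA1, FOXA2 and FOXA3 in their summed FPKM in each library; lower panel, CEBPB FPKM divided by CEBPA FPKM in each library, coloured by group. FOXA2 holds 50.4% to 56.7% in Control and 20.3% and 20.5% in hiHepD8, and the C/EBP ratio is between 5.45 and 11.4.

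The homeodomain genes ONECUT1 and PROX1 were lower on day 8 of the cell-filled device than in normal liver, and lowest with the empty device. ONECUT1 was at 2.85 and 2.72 FPKM in hiHepD8, 4.93 in hiHepD4, 0.519 and 1.78 in EmptyBAL, 4.43 and 5.35 in NoBAL, and 8.81, 8.08 and 9.19 in Control. The groups did not overlap, apart from hiHepD4, which lay between the NoBAL libraries. Against Control, ONECUT1 fell in hiHepD8 (-1.36 ± 0.24, adjusted p = 0.0045), EmptyBAL (-2.24 ± 0.24, adjusted p = 0.00023) and NoBAL (-0.72 ± 0.24, adjusted p = 0.0394). EmptyBAL was below NoBAL (-1.52 ± 0.27, adjusted p = 0.00725) and hiHepD8 was above EmptyBAL (0.88 ± 0.27, adjusted p = 0.0319), while hiHepD8 against NoBAL was not called (-0.63 ± 0.27, adjusted p = 0.0834). The NoBAL call against Control ended without any single library of Control, NoBAL or hiHepD8 (adjusted p = 0.0658 to 0.165), and that of hiHepD8 against EmptyBAL without any single library of Control or hiHepD8 (adjusted p = 0.0548 to 0.136) or without EmptyBAL replicate 1 (0.45, adjusted p = 0.0529). hiHepD8 against NoBAL was called without EmptyBAL replicate 1 or 2 (adjusted p = 0.00434 and 0.00438).

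PROX1 was at 3.28 and 3.18 FPKM in hiHepD8, 5.05 in hiHepD4, 1.01 and 1.15 in EmptyBAL, 10.4 and 5.60 in NoBAL, and 9.41, 9.63 and 9.37 in Control. The NoBAL libraries lay on either side of Control, and the other groups did not overlap with it or with each other. For PROX1 the EmptyBAL libraries were close, 1.14-fold apart, unlike those of HNF4A and FOXA3. PROX1 fell against Control in hiHepD8 (-1.31 ± 0.22, adjusted p = 0.00332) and EmptyBAL (-2.33 ± 0.22, adjusted p = 0.00012), but was not called in NoBAL (-0.27 ± 0.22, adjusted p = 0.332). Against NoBAL it was lower in hiHepD8 (-1.04 ± 0.24, adjusted p = 0.00948) and in EmptyBAL (-2.06 ± 0.24, adjusted p = 0.00229), and hiHepD8 was above EmptyBAL (1.02 ± 0.24, adjusted p = 0.0122). Without hiHepD8 replicate 1 or 2 the calls of hiHepD8 against NoBAL and against EmptyBAL ended. Without NoBAL replicate 1 the value of PROX1 in NoBAL against Control was -0.67, and without NoBAL replicate 2 it was 0.12. PROX1 also marks lymphatic endothelium, whose 7 other markers summed to 209 and 216 FPKM in hiHepD8, 41.7 in hiHepD4, 255 and 191 in EmptyBAL, 86.1 and 52.6 in NoBAL, and 56.8 to 61.8 in Control, with none at 0. Most of the sum in hiHepD8 and EmptyBAL is the chemokine CCL21, and the other 6 markers summed to 48.5 and 49.2 FPKM in hiHepD8, 24.2 in hiHepD4, 61.3 and 31.3 in EmptyBAL, 38.8 and 47.6 in NoBAL, and 27.0 to 27.4 in Control. The part of these cells in the PROX1 level was not tested.

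CEBPA was the member that rose in untreated failure, and neither C/EBP gene was called lower in EmptyBAL than in Control. CEBPA was at 22.0 and 20.4 FPKM in hiHepD8, 44.3 in hiHepD4, 31.3 and 16.8 in EmptyBAL, 59.8 and 45.3 in NoBAL, and 24.8, 19.2 and 23.4 in Control. The NoBAL libraries were the highest and hiHepD4 came next, while hiHepD8 lay within the range of Control and EmptyBAL overlapped with it. CEBPA rose in NoBAL against Control (1.19 ± 0.27, adjusted p = 0.00853), and was lower than in NoBAL in hiHepD8 (-1.26 ± 0.30, adjusted p = 0.0104) and EmptyBAL (-1.15 ± 0.30, adjusted p = 0.0237). Values of -0.07 ± 0.27 in hiHepD8 and 0.04 ± 0.27 in EmptyBAL against Control were not called (adjusted p = 0.866 and 0.913). All 3 calls ended without NoBAL replicate 1, where NoBAL against Control was 0.99 (adjusted p = 0.0542), hiHepD8 against NoBAL -1.06 (adjusted p = 0.0532) and EmptyBAL against NoBAL -0.95 (adjusted p = 0.085), and that of hiHepD8 also ended without hiHepD8 replicate 1 or 2 (adjusted p = 0.0528 and 0.0664).

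CEBPB was among the most abundant members, at 148 and 149 FPKM in hiHepD8, 348 in hiHepD4, 357 and 104 in EmptyBAL, 446 and 247 in NoBAL, and 256, 158 and 246 in Control. Replicates of EmptyBAL were 3.43-fold apart and those of Control 1.63-fold, and both the highest and the lowest of the 10 libraries were from failing livers without cells in a device. CEBPB was not called in any of the 6 comparisons (log2 change -1.15 to 0.62, adjusted p = 0.13 to 0.816). The largest value was that of hiHepD8 against NoBAL (-1.15 ± 0.57, adjusted p = 0.13), which had adjusted p = 0.0222 without EmptyBAL replicate 1 and 0.0227 without replicate 2. EmptyBAL against NoBAL was -1.66 without EmptyBAL replicate 1, and hiHepD8 against EmptyBAL was -1.26 without EmptyBAL replicate 2. Myeloid cells also use both C/EBP factors, and the summed FPKM of 11 myeloid markers was 599.7 and 607 in hiHepD8, 1109 in hiHepD4, 1458 and 682 in EmptyBAL, 678 and 219 in NoBAL, and 752 to 826 in Control. Much of this sum in Control is CD14, a lipopolysaccharide receptor that hepatocytes can also make, and the other 10 markers summed to 117.2 and 116.5 in hiHepD8, 266 in hiHepD4, 1367 and 515 in EmptyBAL, 343 and 119.4 in NoBAL, and 71.6 to 74.3 in Control. The sum with CD14 was therefore lower in NoBAL and hiHepD8 than in Control, and that without it was higher. Within EmptyBAL and within NoBAL, replicate 1 had the higher CEBPA, CEBPB and myeloid marker sum, with and without CD14. The median log2 difference of these markers from Control was 2.76 and 2.26 in EmptyBAL, and 0.45 and 0.49 in NoBAL. Within Control, replicate 2 had the lowest CEBPA and CEBPB but the highest sum, with and without CD14. Within hiHepD8, replicate 1 had the higher CEBPA and sum without CD14, and replicate 2 the higher CEBPB and sum with CD14. The part of myeloid cells in these levels was not tested. Of the neutrophil genes among these markers, S100A8 was at 0 in every Control library and in hiHepD8 replicate 1. S100A12 was at 0 in Control replicates 1 and 3 and in hiHepD8 replicate 2. LYZ, the lysozyme gene, was listed at 0 in both EmptyBAL and both hiHepD8 libraries.

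The C/EBP proteins bind the same DNA sequence, and the ratio of CEBPB to CEBPA FPKM was 6.74 and 7.32 in hiHepD8, 7.86 in hiHepD4, 11.4 and 6.21 in EmptyBAL, 7.46 and 5.45 in NoBAL, and 10.4, 8.22 and 10.5 in Control. CEBPB exceeded CEBPA in all 10 libraries, and the ratio was lower in hiHepD8 and in NoBAL than in Control without overlap. On the log2 scale the ratio differed from Control by -0.46 in hiHepD8, -0.20 in EmptyBAL and -0.60 in NoBAL (exact permutation tests, two-sided, p = 0.2, 0.8 and 0.2, adjusted p = 0.6, 1.0 and 0.6 over 6 comparisons). With 2 against 3 libraries this two-sided exact permutation test cannot go below p = 0.2, the value of hiHepD8 and of NoBAL. No comparison here could reach 0.05.

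ATF5, a leucine zipper factor related to ATF4 and abundant in liver, had the highest level of the 9 genes in Control and, on the log2(FPKM + 1) scale, the largest fall in EmptyBAL and in NoBAL. It was at 232 and 240.1 FPKM in hiHepD8, 404 in hiHepD4, 25.2 and 44.2 in EmptyBAL, 110.4 and 77.6 in NoBAL, and 527, 549 and 533 in Control. No 2 groups overlapped, in the order EmptyBAL, NoBAL, hiHepD8, hiHepD4 and Control from low to high. ATF5 fell against Control in hiHepD8 (-1.18 ± 0.27, adjusted p = 0.0135), EmptyBAL (-3.96 ± 0.27, adjusted p = 3.1e-05) and NoBAL (-2.52 ± 0.27, adjusted p = 0.000251). It was higher in hiHepD8 than in EmptyBAL (2.78 ± 0.30, adjusted p = 0.000462) and NoBAL (1.34 ± 0.30, adjusted p = 0.00792), and lower in EmptyBAL than in NoBAL (-1.44 ± 0.30, adjusted p = 0.0116). As a percentage of the Control mean, ATF5 was at 44.0% in hiHepD8, 75.2% in hiHepD4, 6.47% in EmptyBAL and 17.5% in NoBAL, and on this scale FOXA2 was lower still in EmptyBAL, at 6.20%. Without hiHepD8 replicate 1 or 2 its calls ended against Control (adjusted p = 0.104 and 0.094) and against NoBAL (adjusted p = 0.0502 and 0.0554).

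**Figure D3:**
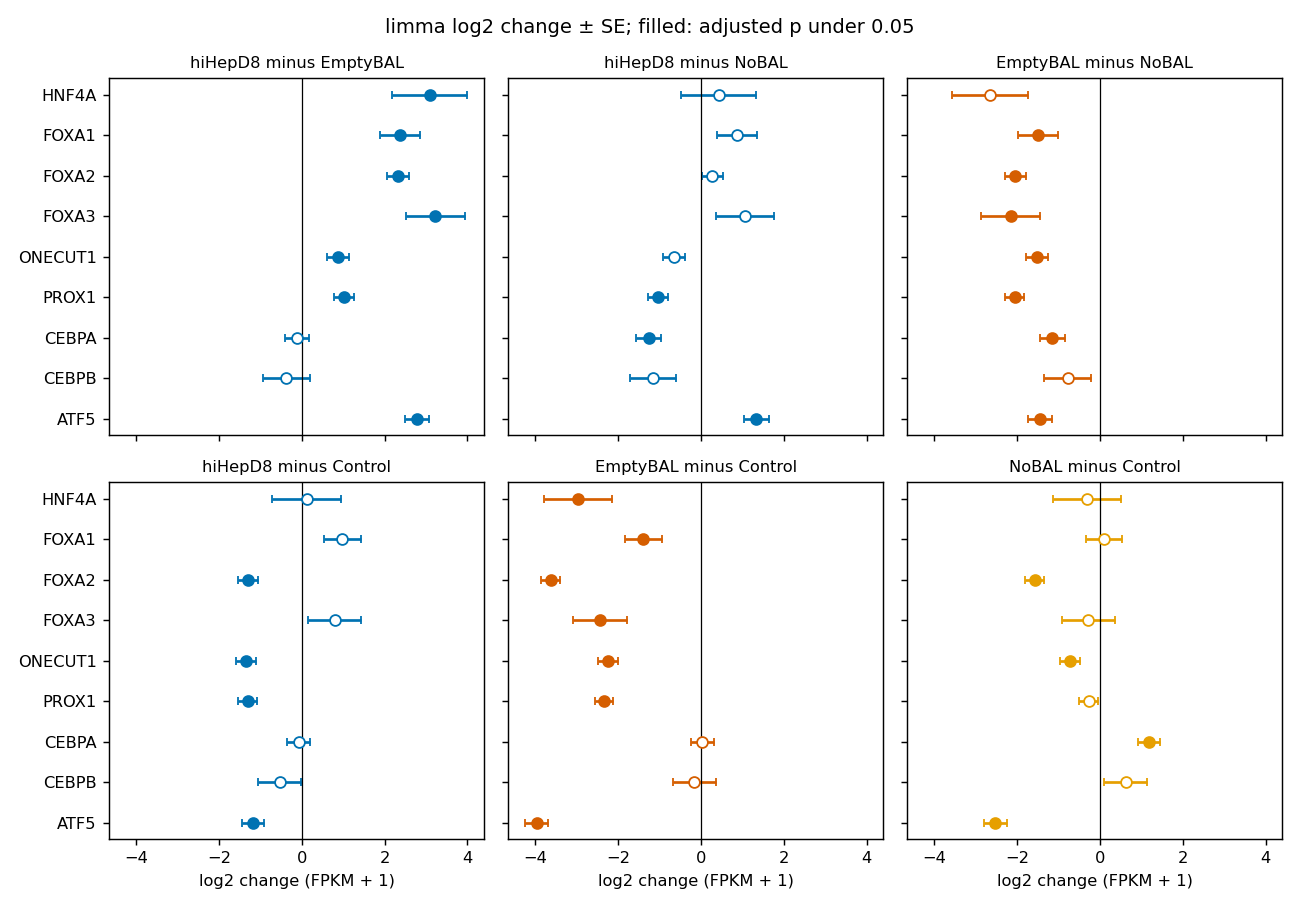
limma log2 change of FPKM + 1 (horizontal axis) with its SE (bars) for each gene in the 6 comparisons; filled points have an adjusted p under 0.05. In hiHepD8 minus EmptyBAL 7 genes are called, all to the right of 0, and in EmptyBAL minus Control 7 are called, all to the left.

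Counted over the 9 genes, EmptyBAL against Control had 7 called, all lower, beside 53.7% of all tested genes called in either direction and 29.3% called lower. hiHepD8 against EmptyBAL had 7 called, all higher, beside 40.2% called and 22.6% called higher. EmptyBAL against NoBAL had 7 called, all lower, beside 34.0% called and 21.4% called lower. NoBAL against Control had 4 called, 1 higher and 3 lower, beside 49.4%, and hiHepD8 against NoBAL had 3 called, 1 higher and 2 lower, beside 47.3%, shares near that of all genes. hiHepD8 against Control had 4 called, all lower, beside 32.2% called and 17.1% called lower. The median log2 change over the 9 genes was -2.33 in EmptyBAL against Control, 2.32 in hiHepD8 against EmptyBAL and -1.52 in EmptyBAL against NoBAL, where the median over all genes was -0.03, 0.05 and -0.14. It was -0.28 in NoBAL against Control, 0.28 in hiHepD8 against NoBAL and -0.53 in hiHepD8 against Control, where all genes had 0.04, -0.03 and -0.02. Of all genes called, 46.9% were higher in hiHepD8 against Control, 45.4% in EmptyBAL against Control, 51.0% in NoBAL against Control, 37.0% in EmptyBAL against NoBAL, 47.5% in hiHepD8 against NoBAL and 56.2% in hiHepD8 against EmptyBAL. With FPKM scaled to equal sums these shares were 79.5%, 78.4%, 66.4%, 85.4%, 60.3% and 38.3%, and with upper-quartile scaling 62.4%, 57.3%, 48.7%, 63.7%, 60.4% and 54.0%. The comparisons share libraries, so their counts are not independent of each other.

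These counts depend on single libraries. Without EmptyBAL replicate 1 or 2, 7 members were called in hiHepD8 against NoBAL and 6 in hiHepD8 against Control. Without hiHepD8 replicate 1 or 2 the counts were 0 and 0 in hiHepD8 against NoBAL (3 and 3 with an unadjusted p under 0.05 in limma), 2 and 3 in hiHepD8 against Control, and 3 and 2 in hiHepD8 against EmptyBAL. They also depend on how far the libraries of a group are separate samples. With the Control libraries averaged to 1 and the hiHepD8 libraries averaged to 1, limma called FOXA2 and ATF5 in EmptyBAL against Control and no member in the other 5 comparisons, where 4 (EmptyBAL against NoBAL), 2 (NoBAL against Control), 4 (hiHepD8 against EmptyBAL), 0 (hiHepD8 against NoBAL) and 0 (hiHepD8 against Control) had an unadjusted p under 0.05. With FPKM scaled to equal sums, the median change of all genes moved by 0.67 in EmptyBAL, 0.26 in NoBAL and 0.47 in hiHepD8 against Control, and only PROX1 was still called in hiHepD8 against Control; FOXA2 (-0.75), ONECUT1 (-0.94) and ATF5 (-0.61) stayed below 0 with adjusted p = 0.0757, 0.085 and 0.114. Under that scaling CEBPA was called higher in EmptyBAL than in Control (0.84, adjusted p = 0.0177), beside a median of 0.64 over all genes.

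**Figure D4:**
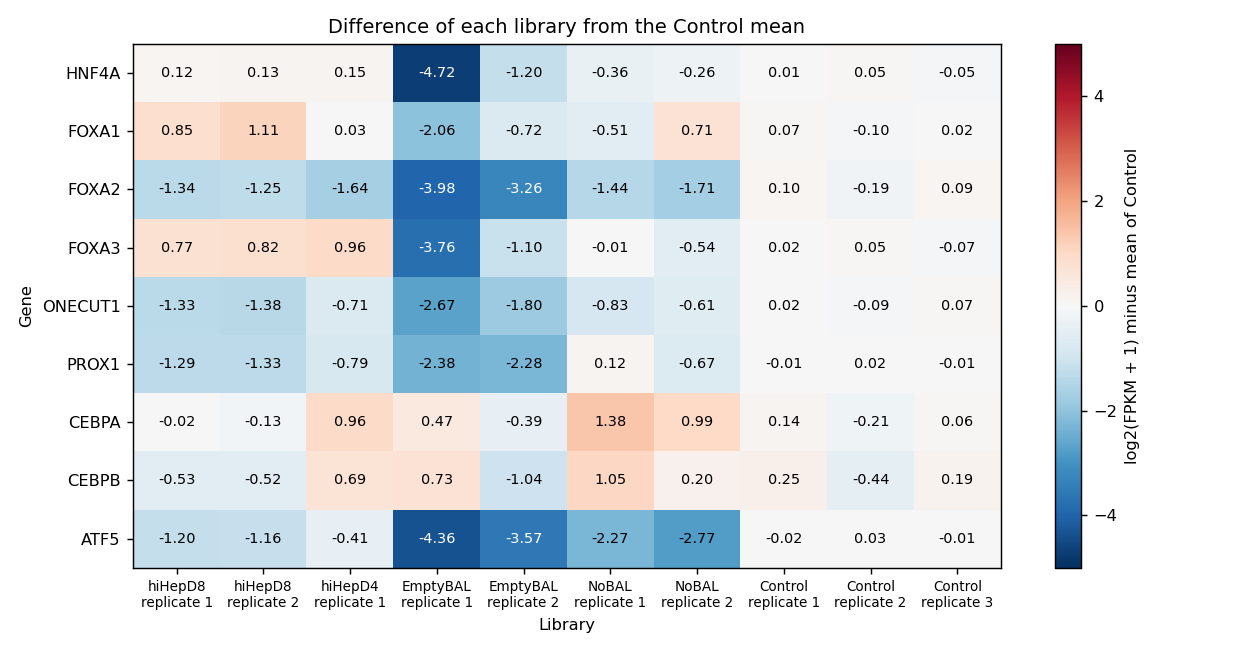
Difference of log2(FPKM + 1) in each library from the Control mean (colour and printed value) for the 9 genes (rows) in the 10 libraries (columns). EmptyBAL replicate 1 has the lowest value for HNF4A, -4.72, and values above 0 for CEBPA (0.47) and CEBPB (0.73), and the hiHepD8 replicates are nearly alike.

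Within EmptyBAL, replicate 1 was further below Control than replicate 2 for 7 of the 9 genes, and was above Control for CEBPA and CEBPB. The differences from the Control mean in replicate 1 and replicate 2 were -4.72 and -1.20 for HNF4A, -3.76 and -1.10 for FOXA3, -2.06 and -0.72 for FOXA1, and -2.67 and -1.80 for ONECUT1. For ATF5 they were -4.36 and -3.57, for FOXA2 -3.98 and -3.26 and for PROX1 -2.38 and -2.28. The members therefore differed in how closely the pair matched, from 1.14-fold in FPKM for PROX1 to 14.8-fold for HNF4A. The median difference of 13 hepatocyte markers from Control was -4.80 in replicate 1 and -3.28 in replicate 2, and that of the 9 genes was -2.67 and -1.20; the part of a lower hepatocyte content in these values was not tested.

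With EmptyBAL replicate 1 alone and replicate 2 alone, the difference of hiHepD8 from EmptyBAL was 4.85 and 1.33 for HNF4A, 4.55 and 1.90 for FOXA3, 3.03 and 1.70 for FOXA1, and 2.68 and 1.96 for FOXA2. It was 3.18 and 2.39 for ATF5, 1.32 and 0.45 for ONECUT1 and 1.07 and 0.97 for PROX1, so these members kept their direction with either library. For CEBPA it was -0.54 and 0.32 and for CEBPB -1.26 and 0.51, and the sign turned with the library. EmptyBAL minus NoBAL, again with replicate 1 alone and replicate 2 alone, was -4.41 and -0.89 for HNF4A, -3.48 and -0.83 for FOXA3, -2.16 and -0.83 for FOXA1, -2.40 and -1.69 for FOXA2, -1.95 and -1.08 for ONECUT1 and -1.83 and -1.05 for ATF5. For CEBPA these values were -0.72 and -1.58, and for CEBPB 0.10 and -1.66.

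hiHepD4 is a single library and was not tested. Beside Control it was past 2-fold for 1 of the 9 genes, FOXA2 (-1.64), where 19.4% of all genes were past 2-fold, 8.19% higher and 11.2% lower; without Control replicate 1 CEBPA was past it as well (1.03). Beside NoBAL it was past 2-fold for 2, ATF5 (2.11) and FOXA3 (1.24), both higher, where 15.2% of all genes were past 2-fold, 7.60% higher and 7.56% lower, and FOXA3 was at 0.97 without NoBAL replicate 2. Beside EmptyBAL it was past 2-fold and higher for 7, where 29.9% of all genes and 16.5% in the higher direction were; CEBPA (0.92) and CEBPB (0.85) were the others. Against EmptyBAL replicate 1 alone and replicate 2 alone the values were 4.87 and 1.36 for HNF4A, 4.72 and 2.07 for FOXA3, 2.09 and 0.75 for FOXA1, 0.49 and 1.35 for CEBPA and -0.035 and 1.73 for CEBPB, so FOXA1 and both C/EBP genes lay on different sides of 2-fold. hiHepD8 beside hiHepD4 was past 2-fold for CEBPA (-1.03) and CEBPB (-1.22), both lower, where 23.4% of all genes and 12.3% in the lower direction were, and CEBPA was at -0.98 without hiHepD8 replicate 2. Between those days the log2 difference was 0.95 for FOXA1, -0.77 for ATF5, -0.17 for FOXA3 and -0.03 for HNF4A.

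The other liver transcription factors, 24 genes of which 23 passed the filter on low values, were listed to set the wider network beside the 9. For this and the lists that follow, the shares of all tested genes called higher and lower were 15.1% and 17.1% in hiHepD8, 24.4% and 29.3% in EmptyBAL and 25.2% and 24.2% in NoBAL against Control, 22.6% and 17.6% in hiHepD8 against EmptyBAL, 22.5% and 24.8% in hiHepD8 against NoBAL, and 12.6% and 21.4% in EmptyBAL against NoBAL. In EmptyBAL against Control 0 rose and 15 fell, with a median log2 change of -1.71, and in NoBAL against Control 0 rose and 9 fell, with a median of -0.52. hiHepD8 against EmptyBAL had 13 higher and 0 lower with a median of 1.14, hiHepD8 against NoBAL 8 higher and 2 lower with 0.53, EmptyBAL against NoBAL 1 higher and 8 lower with -0.81, and hiHepD8 against Control 4 higher and 4 lower with 0.01. The lower share was 65.2% in EmptyBAL and 39.1% in NoBAL, both above that of all genes, and 17.4% in hiHepD8, close to it. PPARA, the fatty acid receptor that drives fat oxidation, averaged 0.405 FPKM in hiHepD8, 0.172 in EmptyBAL and 0.884 in NoBAL, against 19.7 in Control, and it fell in hiHepD8 against Control (-3.89 ± 0.13, adjusted p = 3.72e-06). MLXIPL, which encodes the glucose-responsive factor ChREBP, fell in hiHepD8 to 51.2 FPKM, against 245 in Control (-2.24 ± 0.72, adjusted p = 0.0484). It averaged 35.0 FPKM in EmptyBAL and 38.8 in NoBAL, and was called lower than in Control in both. KLF15, a fasting-response factor, averaged 194 FPKM in hiHepD8, against 49.1 in Control (1.97 ± 0.61, adjusted p = 0.0415).

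Genes known as targets were read as lists taken from textbook knowledge, and binding was not measured. The lists were chosen with earlier results of these data known. Of 19 HNF4A targets, 18 fell in EmptyBAL, 13 in NoBAL and 8 in hiHepD8 against Control, none rose, and the medians were -4.04, -2.06 and -1.47. In NoBAL and hiHepD8 the HNF4A level itself was not called against Control. TTR, the thyroid hormone carrier transthyretin, averaged 389.7 FPKM in hiHepD8, 221 in EmptyBAL and 327 in NoBAL, against 8607 in Control. OTC, a urea cycle enzyme, averaged 119.5 FPKM in hiHepD8, against 8.76 in NoBAL (3.66 ± 0.29, adjusted p = 8.7e-05). APOA4, an apolipoprotein, averaged 44.4 FPKM in hiHepD8, against 1436 in NoBAL (-4.56 ± 1.41, adjusted p = 0.0303). Its NoBAL libraries were far apart, at 481 and 2391 FPKM. In hiHepD8 against NoBAL 6 of the 19 were higher and 2 lower, and against EmptyBAL 12 were higher and 0 lower.

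Of 14 fixed FOXA and HNF6 targets 13 were found by symbol, and 11 of these passed the filter. Against Control 11 fell in EmptyBAL, 5 in NoBAL and 4 in hiHepD8, where 1 rose, and 8 were higher and 0 lower in hiHepD8 than in EmptyBAL. The one that rose, TAT, a tyrosine-degrading enzyme induced by glucocorticoids, averaged 3219 FPKM in hiHepD8, against 242 in Control (3.73 ± 0.60, adjusted p = 0.0028). Of 19 fixed C/EBP targets 14 were found by symbol, and all of these passed the filter. Against Control 11 fell in EmptyBAL, 5 in NoBAL and 2 in hiHepD8, where 3 rose. SDS, a serine-degrading enzyme, averaged 1945 FPKM in hiHepD8, against 16.1 in Control (6.84 ± 0.74, adjusted p = 0.000456), and LBP, an acute phase protein that binds bacterial lipopolysaccharide, fell to 5.50 FPKM in hiHepD8, against 86.9 in Control (-3.76 ± 0.56, adjusted p = 0.00198). The lists overlap, and their counts are not separate. The FOXA and HNF6 list shares 5 measured genes with the C/EBP list (ALB, CPS1, G6PC1, PCK1 and TAT) and 3 with the HNF4A list (CYP7A1, SERPINA1 and TTR), and the hepatocyte markers share 6 genes with the HNF4A list, 5 with the FOXA and HNF6 list and 3 with the C/EBP list.

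The leucine zipper relatives of the C/EBP genes, 8 of 9 above the filter, had 4 lower in hiHepD8, 5 lower in EmptyBAL, and 1 higher and 5 lower in NoBAL against Control. DBP, a circadian output factor, averaged 7.24 FPKM in hiHepD8, 1.72 in EmptyBAL and 0.626 in NoBAL, against 40.6 in Control. DDIT3, the stress factor CHOP, averaged 11.0 FPKM in hiHepD8, 20.9 in EmptyBAL and 9.08 in NoBAL, against 103 in Control. It was called lower in each of them. Of 15 relatives of ATF5 and stress response genes, 3 rose and 6 fell in hiHepD8, 1 rose and 6 fell in EmptyBAL, and 1 rose and 3 fell in NoBAL against Control. ATF3, an immediate stress factor, fell to 0.975 FPKM in hiHepD8, against 200.3 in Control (-6.67 ± 0.21, adjusted p = 2.93e-06). It was also called lower in EmptyBAL, at 8.69 FPKM, and in NoBAL, at 12.5. SESN2, a stress-induced inhibitor of growth signalling, averaged 56.6 FPKM in hiHepD8, against 5.76 in Control (3.09 ± 0.39, adjusted p = 0.000949). In NoBAL the shares of these genes called, 6.67% higher and 20.0% lower, were below those of all genes; in hiHepD8, 20.0% were higher and 40.0% lower.

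Markers of the cell types that share the tissue are given for the same comparisons. Of 13 hepatocyte markers 6 fell and 1 rose in hiHepD8, 12 fell in EmptyBAL and 8 fell in NoBAL against Control. Of 11 myeloid markers 2 rose and 1 fell in hiHepD8, 9 rose and 1 fell in EmptyBAL, and 3 rose and 2 fell in NoBAL, and of 8 stellate and fibroblast markers 6 rose in hiHepD8, 5 in EmptyBAL and 3 in NoBAL with none lower. Rises were also called in hiHepD8, EmptyBAL and NoBAL for 3, 3 and 2 of 7 endothelial markers, for 4, 4 and 2 of 7 lymphatic endothelial markers (1 fell in NoBAL), and for 5, 4 and 1 of 8 cholangiocyte and progenitor markers (1 fell in EmptyBAL and 1 in NoBAL). In NoBAL the shares called higher, 28.6% of the endothelial and of the lymphatic and 12.5% of the cholangiocyte markers, were close to or below the 25.2% of all genes. The 15 cell cycle genes all rose in EmptyBAL and in NoBAL, and 3 fell and none rose in hiHepD8. The part of these cell types in the levels of the 9 factors was not tested.

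**Figure D5:**
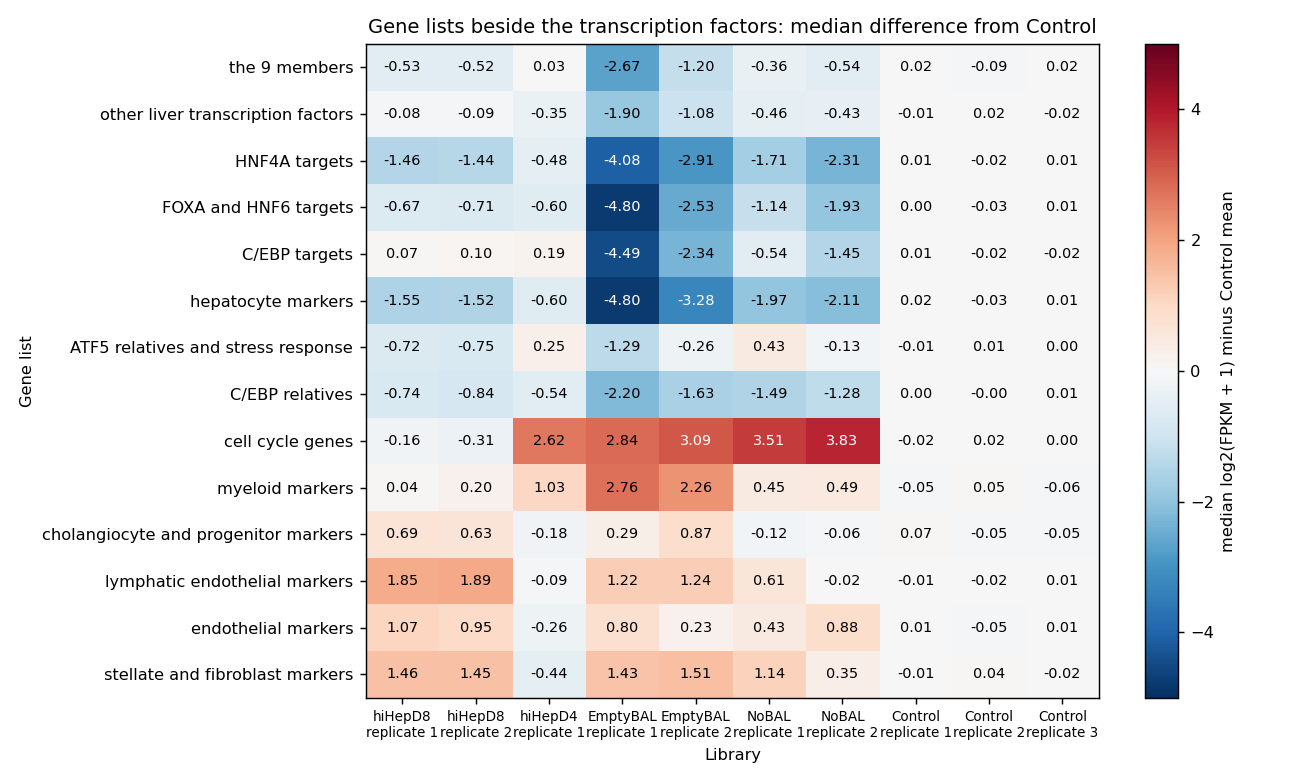
Median difference of log2(FPKM + 1) from the Control mean over each gene list (rows) in each library (columns); colour and printed value give the median. The hepatocyte marker median is -4.80 and -3.28 in EmptyBAL and -1.55 and -1.52 in hiHepD8, while that of the 9 transcription factors is -2.67 and -1.20 in EmptyBAL and -0.53 and -0.52 in hiHepD8.

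To place each factor among all genes, the mean absolute difference over the 10 libraries was taken between its log2(FPKM + 1), less the Control mean, and that of 6485 named genes averaging at least 5 FPKM. Nearest to HNF4A were GJB1 (0.175), which encodes the hepatocyte gap junction protein connexin 32, and ACADSB (0.177), a branched-chain acyl-CoA dehydrogenase. Nearest to ATF5 were CPB2 (0.144), a plasma carboxypeptidase that slows clot lysis, and F9 (0.172), coagulation factor IX, and nearest to FOXA2 were PTGR2 (0.245) and CTSV (0.270). ONECUT1 was nearest to CRLS1 (0.131), the cardiolipin synthase, PROX1 to P4HB (0.180), a protein disulfide isomerase, and CEBPA to CCNK (0.145), a cyclin. CEBPB was nearest to ZYX (0.272), which encodes the focal adhesion protein zyxin, FOXA1 to DSP (0.197), which encodes desmoplakin of cell junctions, and FOXA3 to COX19 and A1CF (0.338 each). Among the 9 themselves ONECUT1 and PROX1 were the closest pair (0.219), followed by CEBPA and CEBPB (0.368), HNF4A and FOXA3 (0.387) and FOXA2 and ATF5 (0.449). These distances are descriptive, and all of them share the same 10 libraries and their scaling.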

How the data were processed

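Gene expression was measured by RNA sequencing in 10 pig liver libraries. The authors deposited 1 table of FPKM values, with 31905 genes and 10 library columns; the unit was not stated for the columns and was read from the values and the gene columns. Among the tools in the submitters' processing notes are Cufflinks, HISAT2 and HTSeq, and the genome builds there are mm10 and Sscrofa11.1; no role is given for any of them. No read counts were given, so depth is unknown and no counting interval is given. Groups came from the sample titles, and 0 columns were left unused. Gene positions came from a RefSeq table of Sscrofa11.1, matched by symbol.

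From the deposited FPKM, log2(FPKM + 1) was computed for the 12180 genes that reached 1 FPKM in 2 or more libraries. All 9 members passed. limma 3.58.1 (R 4.3.3) with a mean-variance trend was fitted to all 10 libraries with 1 mean per group (5 residual degrees of freedom, prior 2.73), and p-values of 6 comparisons were adjusted by Benjamini-Hochberg over all tested genes, with a threshold of 0.05. A single library was described by a 2-fold difference. The ratio of CEBPB to CEBPA was tested by exact permutation. The fit was tested on simulated data. The members and gene lists were chosen with earlier results of these data known. The text names all members, up to 3 called genes with the largest change per list and comparison, and up to 3 genes most like each member. Some genes on these lists are not reported here.

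Alternatives were a pseudocount of 0.1, no filter, upper-quartile scaling, scaling to equal sums (TPM), no mean-variance trend, only the 2 groups compared, a replicate block, Control and hiHepD8 each averaged to 1, rows summed per symbol, and leaving out each library. Replicate numbers were checked for pairing by the correlation of replicate differences between groups, which ran from -0.0543 to 0.137, so the numbers were not taken to pair samples.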

Additional observations from a re-analysis of the deposited data

How the results depend on the processing

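Depth could not be assessed, and with 1 to 3 libraries per group the calls rest on a spread shared across groups. Rows summed per symbol left all 54 member results as they were, and a pseudocount of 0.1 ended 3 calls, no filter 6, no mean-variance trend 1 and upper-quartile scaling 4. With Control and hiHepD8 each averaged to 1, the members called were 2 in EmptyBAL against Control and 0 in EmptyBAL against NoBAL, NoBAL against Control, hiHepD8 against Control, hiHepD8 against EmptyBAL and hiHepD8 against NoBAL; fewer residual degrees of freedom remained. All genes called were then 692, 0, 419, 17, 34 and 299, where the full fit had 6540, 4146, 6021, 3923, 4895 and 5764. With only the 2 groups in the limma fit, 0 members were called in EmptyBAL against NoBAL (4 with an unadjusted p under 0.05), 7 in hiHepD8 against Control and 3 in hiHepD8 against EmptyBAL, and all genes called were 0, 8384 and 2353.

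With equal sums, members called were 5 in EmptyBAL against Control, 4 in EmptyBAL against NoBAL and 1 in hiHepD8 against Control. CEBPA, called higher, was among the 5. In EmptyBAL against Control the calls of HNF4A (-2.24, limma adjusted p = 0.0581), FOXA3 (-1.80, 0.0581) and FOXA1 (-0.99, 0.199) ended. Members past 2-fold were 1 in hiHepD4 against NoBAL and 1 in hiHepD8 against hiHepD4. Under that scaling 6 values that were not called changed sign, to 0.48 for CEBPA and 0.043 for CEBPB in hiHepD8 against Control, 0.67 for CEBPB in EmptyBAL against Control, and 0.068 for FOXA3, 0.046 for HNF4A and 0.043 for PROX1 in NoBAL against Control. Upper-quartile scaling turned CEBPA in hiHepD8 against Control to 0.13 and CEBPB in EmptyBAL against Control to 0.082, and the cause was not tested.

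Leaving out 1 library gave 2 to 6 members called in hiHepD8 against Control, 6 to 7 in EmptyBAL against Control, 3 to 5 in NoBAL against Control, 5 to 8 in EmptyBAL against NoBAL, 0 to 7 in hiHepD8 against NoBAL and 2 to 8 in hiHepD8 against EmptyBAL. Values that changed sign ran from -0.39 to 0.47 for CEBPA in EmptyBAL against Control, -0.54 to 0.32 for CEBPA and -1.26 to 0.51 for CEBPB in hiHepD8 against EmptyBAL, -1.04 to 0.73 for CEBPB in EmptyBAL against Control, -1.66 to 0.10 for CEBPB in EmptyBAL against NoBAL, -0.51 to 0.71 for FOXA1 and -0.67 to 0.12 for PROX1 in NoBAL against Control. The log2 ratio of CEBPB to CEBPA ran from -0.037 to 0.84 in EmptyBAL against NoBAL, -0.70 to 0.18 in hiHepD8 against EmptyBAL, -0.63 to 0.24 in EmptyBAL against Control and -0.086 to 0.37 in hiHepD8 against NoBAL.

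A replicate block ended 4 calls, ATF5 in hiHepD8 against Control (adjusted p = 0.0752), FOXA3 in EmptyBAL against NoBAL (0.0843), ONECUT1 in NoBAL against Control (0.105) and ONECUT1 in hiHepD8 against EmptyBAL (0.0593). With the block all genes called were 2341 in hiHepD8 against Control and 2502 in EmptyBAL against NoBAL; the numbers name libraries and were not found to pair them.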
